A study of Mus musculus with 2 samples.

Results

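Cell cycle genes were followed as a list of 40 genes, named by symbol, of the 32285 gene rows in each count matrix. The 40 comprise 15 genes whose products act in DNA replication (S members), 24 whose products act in the G2 phase and mitosis (G2/M members), and Stmn1, which was described on its own because it is not specific for a phase. Their unique molecular identifiers (UMIs, 1 per captured transcript) were counted in every cell of 2 droplet libraries of 3′ single-cell RNA sequencing. Both libraries came from CT26 tumours in BALB/c mice. CT26 is a mouse colon carcinoma line that grows in this inbred strain. In 1 library the tumours carried a mock construct, and in the other they expressed PTIR1. Age, sex, time after implantation and the number of animals pooled are not stated in the labels. No gene row named PTIR1 was found, so the label could not be checked by its transcript. With 1 library a group there was no replicate and no test, and all intervals given are at 95% and stand for counting error alone.

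Dividing cells copy their DNA in S phase and separate the copies in mitosis, and many of the genes needed are transcribed only around the phase in which they act. Genes of replication are switched on by E2F transcription factors as cells leave G1. Genes of mitosis are switched on later by a complex with B-Myb and FoxM1 that reads a promoter element called CHR, often with CCAAT boxes nearby. Resting and fully matured cells keep both groups low, so transcripts of both groups are widely used to find dividing cells in tissue.

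The S members are Mcm2, Mcm3, Mcm4, Mcm5, Mcm6 and Mcm7, the subunits of the replicative helicase; Cdc6, Cdc45 and Gins2, which load or activate it; Pcna, the sliding clamp of DNA polymerases; Tyms, Rrm1 and Rrm2, enzymes of deoxynucleotide supply; Uhrf1, which helps to copy DNA methylation; and Ccne2, a cyclin of the start of S phase. Among the G2/M members, Cdk1, Ccna2, Ccnb1 and Ccnb2 are the mitotic kinase and its cyclins, and Plk1, Aurka, Aurkb, Bub1 and Bub1b are kinases or related proteins of mitotic entry and the spindle checkpoint. Birc5 and Cdca8 are partners of Aurkb. Cenpa, Cenpe and Cenpf belong to centromeres and kinetochores. Kif11, Kif20a, Kif23, Prc1, Tpx2 and Nusap1 build the spindle or its midzone. Cdc20 and Ube2c direct the breakdown of cyclins, Top2a untangles sister chromatids, and Mki67 coats mitotic chromosomes. Stmn1 regulates microtubules and is abundant in many proliferating cells. The 40 genes lie on 17 chromosomes.

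Promoter sequences of 5 members are shown as examples of letters whose frequency differs between S and G2/M members. Both S members shown hold E2F letters, which were found in 5 of 12 S members. Whether these letters bear on any difference between the libraries was not tested. The sequences are the 250 bases before the transcription start, taken from the RefSeq promoter table (build GRCm38.p6) and written on the strand of the gene. Capitals mark matches, on either strand, to E2F letters (TTTGGCGC, TTTCCCGC, TTTCGCGC or TTTGCCGC), CHR letters (TTTGAA or TTTAAA) and CCAAT, which reads ATTGG on the other strand.
Mcm6: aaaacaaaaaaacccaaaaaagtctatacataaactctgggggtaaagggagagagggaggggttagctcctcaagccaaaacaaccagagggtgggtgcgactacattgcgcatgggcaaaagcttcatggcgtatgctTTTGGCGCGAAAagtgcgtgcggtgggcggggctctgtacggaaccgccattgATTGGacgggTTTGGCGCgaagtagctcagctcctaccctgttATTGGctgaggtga
Mcm5: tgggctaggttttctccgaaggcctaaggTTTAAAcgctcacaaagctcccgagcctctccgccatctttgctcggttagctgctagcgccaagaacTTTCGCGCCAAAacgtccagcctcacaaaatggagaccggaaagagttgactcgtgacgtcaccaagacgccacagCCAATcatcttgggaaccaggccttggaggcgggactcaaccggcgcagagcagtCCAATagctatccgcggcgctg
Ccnb1: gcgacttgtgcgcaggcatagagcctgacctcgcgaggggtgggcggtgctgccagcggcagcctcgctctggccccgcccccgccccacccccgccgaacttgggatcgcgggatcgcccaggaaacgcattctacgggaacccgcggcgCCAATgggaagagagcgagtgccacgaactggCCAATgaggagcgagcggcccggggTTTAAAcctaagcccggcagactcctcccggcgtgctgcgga
Cdc20: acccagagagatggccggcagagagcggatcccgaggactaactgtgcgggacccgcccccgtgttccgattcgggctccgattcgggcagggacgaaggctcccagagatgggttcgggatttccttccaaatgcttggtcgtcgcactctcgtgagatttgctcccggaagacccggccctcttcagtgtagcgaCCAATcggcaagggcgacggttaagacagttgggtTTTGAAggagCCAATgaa
Cdk1: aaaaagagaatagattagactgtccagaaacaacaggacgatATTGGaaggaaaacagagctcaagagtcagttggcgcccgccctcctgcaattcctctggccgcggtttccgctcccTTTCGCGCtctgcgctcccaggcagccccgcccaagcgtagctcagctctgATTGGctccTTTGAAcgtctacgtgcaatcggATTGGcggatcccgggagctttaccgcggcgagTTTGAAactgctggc
The S members Mcm6 (chr1:128359706-128359955, minus strand) and Mcm5 (chr8:75109259-75109508, plus strand) hold E2F letters that overlap on both strands. Both also hold CCAAT boxes, and Mcm5 holds CHR letters. Ccnb1 (chr13:100786487-100786736, minus strand) and Cdc20 (chr4:118437344-118437593, minus strand) hold CHR letters and CCAAT boxes and no E2F letters. Cdk1 (chr10:69352913-69353162, minus strand), like Mcm5, holds all 3 kinds.

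A promoter was found in this table for 32 of the 40 members, and matches were counted over a window of 300 bases that also takes in 50 bases after the start. E2F letters were found in 5 of 12 S members (41.7%) and in 1 of 20 G2/M members (5%), against 2.32% of all 27025 promoters. CHR letters were found in 18 of 20 G2/M members (90%) and in 4 of 12 S members, against 27.8% of all promoters. CCAAT letters were frequent in both groups, in 18 of 20 G2/M members (90%) and 10 of 12 S members (83.3%), against 37.9% of all promoters. Both CHR and CCAAT letters stood in 17 of 20 G2/M members (85%) and in 4 of 12 S members, against 10.9% of all promoters. These are matches of letters, not binding sites, and a window without a match says only that these letters are not in it.

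Before any class was compared, the libraries differed in depth. The mock library held 10833 barcodes and 95166611 UMIs, and the PTIR1 library 9006 barcodes and 98540561 UMIs. After cells with under 200 genes or over 10% mitochondrial UMIs were left out, 9328 mock cells with a median of 2947.5 UMIs and 7567 PTIR1 cells with a median of 7016 UMIs remained. The libraries shared 30 barcode sequences, 22 of them among the kept cells. The submitters describe tumour-infiltrating lymphocytes, yet the matrices also held tumour, myeloid and stromal cells, and the labels used here name no sorting or enrichment before capture. Over all kept cells the members made up 0.164% of mock and 0.105% of PTIR1 UMIs. All 40 members had a lower level in the PTIR1 library with an interval below 1, as had 32.9% of all genes tested. Cell classes contribute unequally to that sum, so the members were read within classes.

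Classes were set by gates on marker genes per 10000 UMIs and are called tumour-like, macrophage-like (monocytes included), NK-like, T-like, B-like, mast-like (basophils included) and so on. The tumour-like gate took 160 mock and 84 PTIR1 cells. In these cells the tumour marker Tm4sf1 stood at 1087 CPM (UMIs per 1000000 UMIs of the class) in mock and 1032 CPM in PTIR1 tumours, Areg at 67.9 and 87.0 CPM, and Krt18 at 20.3 and 40.5 CPM. Slurp1 stood at 196 and 36.04 CPM, Cnfn at 27.7 and 2.10 CPM, and Krt8 at 0.749 and 19.2 CPM. The keratin Krt7 and the junction gene Cldn4 had 0 UMIs in both libraries. Summed fibroblast markers were alike, at 5.44 and 5.39 UMIs per 10000, but single ones were not. Col3a1 stood at 6.88 and 26.9 CPM and Dpt at 0.204 and 4.66 CPM. Col1a2, which gave most of the sum, stood at 415 and 387 CPM, and Dcn and Pdgfra were also lower in the PTIR1 library. Whether the stromal content of this gate is the same in both libraries was not tested.

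Tumour-like cells held far more of the members' UMIs than of the cells. In the mock library they were 1.72% of kept cells and gave 43.7% of all member UMIs. In the PTIR1 library they were 1.11% of kept cells and gave 21.4% of member UMIs, while NK-like cells gave 7.40% in mock and 18.1% in the PTIR1 library. Macrophage-like cells gave similar shares of 11.3% and 12.1%, and T-like cells gave 6.18% and 3.33%. Cells with markers of more than 1 class gave 10.5% and 15.02%, and cells of no class 16.4% and 15.97%, and these were not assigned to a type.

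To compare cells of unequal depth, each cell was thinned at random to 2000 UMIs, and a cell was called cycling when at least 3 different of the 39 phase members remained among them. Cells under 2000 UMIs were left out, 4257 in the mock library (45.6%) and 2036 in the PTIR1 library (26.9%). In the mock library 714 of 5071 deep cells (14.1%) were called cycling, and in the PTIR1 library 612 of 5531 (11.1%). Neutrophil-like cells served as a comparison for this call, since neutrophils do not divide once mature. Called were 5 of 119 mock cells (4.20%, 1.38 to 9.53%) and 9 of 193 PTIR1 cells (4.66%, 2.15 to 8.67%), at median depths of 3387 and 3324 UMIs. Immature neutrophil genes stood at 28.9 and 54.2 UMIs per 10000 in this gate. A cluster led by Camp, Ngp and Ltf, of which 59 of 60 cells came from the PTIR1 library, had 21.4% of its deep cells called. Of its 56 deep cells 41.1% passed the neutrophil gate, so the comparison may hold dividing cells, and their part in it was not tested.

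Cycling was most frequent among tumour-like cells in both libraries, and their share was lower in the PTIR1 library. Of 159 mock tumour-like cells 109 were called cycling (68.6%, exact binomial interval 60.7 to 75.7%), and of 84 PTIR1 cells 36 (42.9%, 32.1 to 54.1%). The share in the PTIR1 library was 0.625 of that in the mock library (0.478 to 0.818), a difference of -25.7 percentage points (-37.8 to -12.6). With at least 6 members the shares were 47.8% and 28.6%. Without thinning they were 100% and 96.4%, at median depths of 73401 and 57583 UMIs. Thinned to 5000 UMIs the shares were 81.9% and 63.1%. Cells with exactly 2 members, just outside the limit, numbered 12 in mock and 14 in PTIR1 tumours, and cells with exactly 3, just inside, numbered 10 and 1. Only 1 mock tumour-like cell was left out for depth. A lower share in the PTIR1 library was not confined to cells that passed this gate. Cells with markers of more than 1 class gave 22.6% and 15.4%, a ratio of 0.682 (0.532 to 0.873). Cells of no class gave 21.9% and 14.8%, a ratio of 0.674 (0.538 to 0.844). In a clustering of all kept cells, the cluster named tumour, led by Timp1, held 492 deep cells, of which 61.6% were called. Only 47.0% of them passed the tumour gate, so both of these groups may hold tumour cells. The part of such cells in their shares was not tested.

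In lymphoid classes the called shares of the libraries lay close to each other at 3 or more members among 2000 UMIs. Among NK-like cells 98 of 415 in the mock library (23.6%, 19.6 to 28.0%) and 124 of 538 in the PTIR1 library (23.0%, 19.6 to 26.8%) were called, a ratio of 0.976 (0.774 to 1.23). T-like cells gave 66 of 277 (23.8%, 18.9 to 29.3%) and 27 of 122 (22.1%, 15.1 to 30.5%), a ratio of 0.929 (0.626 to 1.38). B-like cells gave 24 of 359 (6.69%) and 45 of 667 (6.75%), a ratio of 1.01 (0.625 to 1.63). For B-like cells this closeness depended on the limit, and the log2 ratio was 2.55 when thinned to 1000 UMIs, 1.35 with at least 4 members, 3.01 with at least 6 and 2.28 with G2/M members only. At the main limit the interval of each of these 3 ratios holds 1, and its bounds give the size of a difference that these counts could have missed. Without thinning the shares were 61.2% and 67.9% in NK-like cells, 68.1% and 61.4% in T-like cells, and 27.4% and 31.1% in B-like cells.

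**Figure D1:**
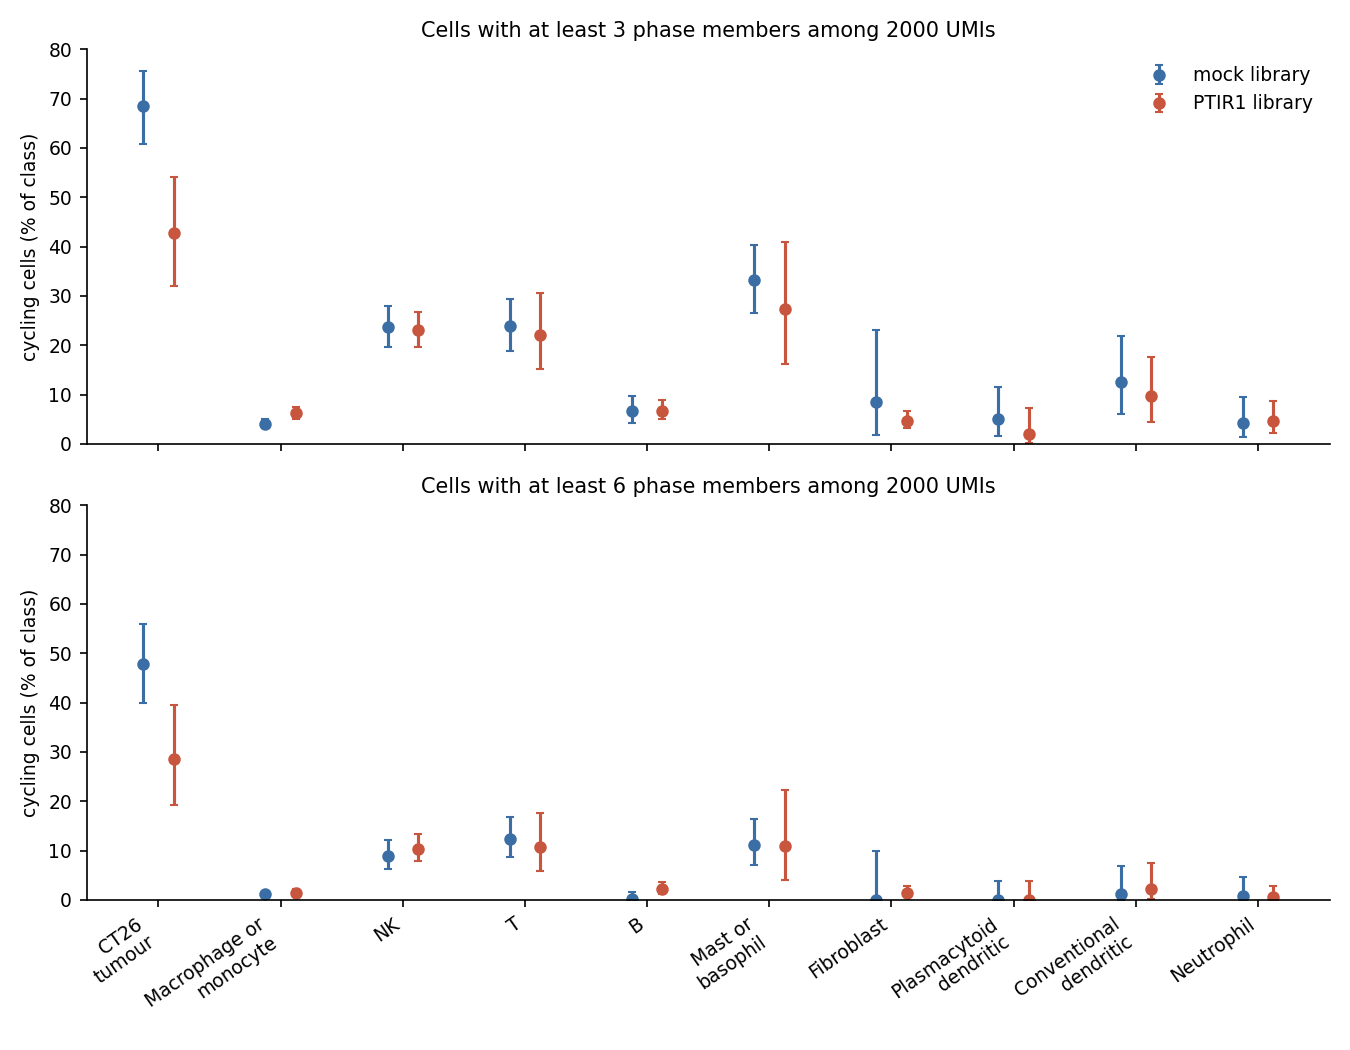
Share of cells called cycling (vertical axes, percent of the cells of a class with at least 2000 UMIs) in 10 marker-gated classes of the mock (blue) and PTIR1 (red) libraries, with at least 3 (upper panel) or at least 6 (lower panel) phase members among 2000 UMIs; bars are exact 95% binomial intervals. The tumour-like shares of 68.6% and 42.9% are the highest points of the upper panel, and the NK-like points of 23.6% and 23.0% lie beside each other.

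Subsets of T-like cells were small. Those with a CD8 chain gave 45 of 148 mock cells (30.4%) and 6 of 29 PTIR1 cells (20.7%). Those with Foxp3, the factor of regulatory T cells, gave 2 of 36 (5.56%) and 5 of 20 (25%). The difference between these subsets was not tested.

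Mast-like cells had called shares of 33.2% (63 of 190, 26.5 to 40.3%) in mock and 27.3% (15 of 55, 16.1 to 41.0%) in the PTIR1 library, a ratio of 0.823 (0.511 to 1.32). Thinned to 5000 UMIs the mast-like shares were 59.6% and 25.6%, a ratio of 0.430 (0.246 to 0.753). Fibroblast-like cells gave 3 of 35 (8.57%) and 29 of 624 (4.65%), conventional dendritic-like cells 12.5% and 9.68%, and plasmacytoid dendritic-like cells 5.15% and 2.06%. Both fibroblast-like shares and the mock plasmacytoid share lie within the neutrophil-like interval of the same library, and the PTIR1 plasmacytoid share lies just below it.

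Macrophage-like cells gave 93 of 2268 mock cells (4.10%, 3.3 to 5.0%) and 101 of 1629 PTIR1 cells (6.20%, 5.08 to 7.48%), both within the neutrophil-like intervals. The ratio of 1.51 (1.15 to 1.99) was not kept when shallow clusters of no class were left out, where the 2 shares differed by 0.01 on the log2 scale. Called macrophage-like cells of the PTIR1 library had a median of 5317 UMIs against 15285 in the mock library. Thinning to 1000 UMIs turned the direction, to -0.43 on the log2 scale.

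**Figure D2:**
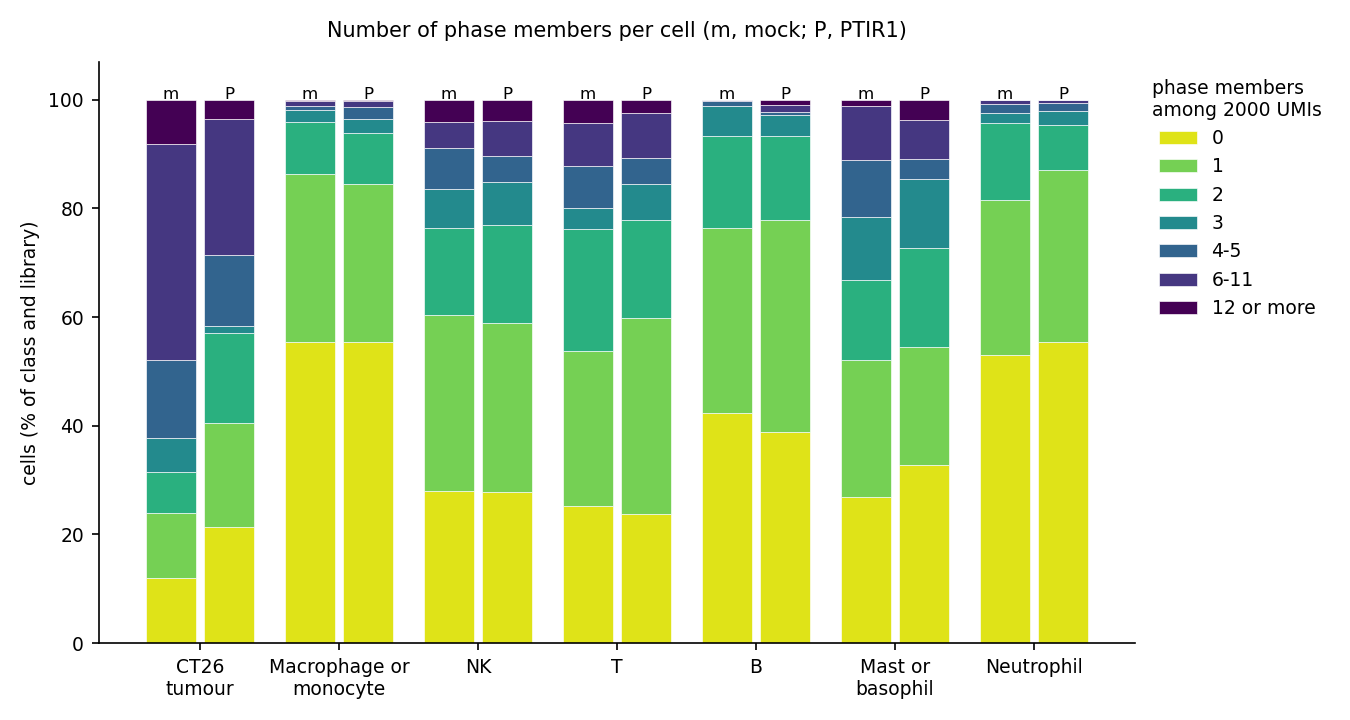
Number of different phase members found among 2000 UMIs of a cell, as stacked shares (vertical axis, percent of the cells of a class and library) for 7 classes; m is the mock and P the PTIR1 library, and darker colours are more members. In the mock library 13 of 159 tumour-like cells held 12 or more members, and in the PTIR1 library 3 of 84.

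The 2 groups of members differed in how closely they followed the call, which drew on 24 G2/M and 15 S members. A G2/M member was therefore judged by a call in which its own group was the larger. How far this made the difference between the groups was not tested. Each member was read in the cells called cycling by the other members, which held a median of 26.2% (mock) and 16.3% (PTIR1) of all UMIs for the G2/M members. The G2/M members had a median of 92.3% of their UMIs in such cells in the mock library and 85.8% in the PTIR1 library. The S members had medians of 69.0% and 56.0%. Cenpf had 96.5% and 91.7% of its UMIs there, Ube2c 95.5% and 91.7%, and Plk1 93.9% and 92.2%. At the other end Pcna had 51.9% and 35.8%, and its level in called cells was 3.36-fold and 3.14-fold that in other cells. Rrm2 was the S member with the highest shares, 91.1% and 85.6%. Cenpa, the histone of centromeres, had the lowest shares of the G2/M members, 59.2% and 49.3%.

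Within the tumour-like class the members were lower in the PTIR1 library, and the S members by more than the G2/M members. All members together stood at 4396 CPM in mock and 3155 CPM in PTIR1 tumours, a ratio of 0.718 (0.707 to 0.729). The S members stood at 1372 and 858 CPM (0.626, 0.608 to 0.644), and the G2/M members at 2865 and 2178 CPM (0.760, 0.746 to 0.775). Of the 40 members 34 had an interval below 1, against 24.6% of all 9985 genes tested, and 1 had an interval above 1, against 10.8%. At least 1.5-fold lower were 16 members, where the background was 7.24%, and 0 were 1.5-fold higher, where it was 3.36%. The median log2 ratio was -0.49 over the members and -0.09 over all genes. The class is small, and its 5 cells with the most member UMIs gave 22.3% of them in mock and 36.3% in the PTIR1 library.

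All 15 S members had an interval below 1, with a median log2 ratio of -0.66. Pcna stood at 333.7 CPM in mock and 190.3 CPM in the PTIR1 library (0.570, 0.536 to 0.607). Of the helicase subunits, Mcm5 stood at 86.7 and 45.8 CPM (0.529, 0.465 to 0.599) and Mcm6 at 75.4 and 47.8 CPM (0.634, 0.558 to 0.718), while the least different, Mcm3, stood at 86.4 and 64.4 CPM (0.746). Cdc6, a loader of the helicase, stood at 17.5 and 9.01 CPM (0.515, 0.382 to 0.684), Cdc45 at 38.5 and 20.1 CPM (0.522), and Gins2 at 59.98 and 39.4 CPM (0.656). For the nucleotide enzymes the ratios were 0.647 for Tyms, 0.656 for Rrm1 and 0.679 for Rrm2. Cyclin E2 (Ccne2) had a ratio of 0.559 and Uhrf1 of 0.711.

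The G2/M members were less uniform. Mki67 was the lowest of all 40, at 207.7 CPM in mock and 91.3 CPM in the PTIR1 library (0.440, 0.402 to 0.480), followed among the G2/M members by Top2a at 271.0 and 160.7 CPM (0.593) and Nusap1 at 68.1 and 40.4 CPM (0.593). Spindle motors and midzone genes came next, with Kif20a at 0.605, Kif11 at 0.653 and Prc1 at 0.688. The mitotic kinase Cdk1 stood at 171 and 119.7 CPM (0.699) and its cyclin Ccnb1 at 65.2 and 46.7 CPM (0.716, 0.628 to 0.815). Its other B-type cyclin went the other way. Ccnb2 stood at 41.9 CPM in mock and 52.7 CPM in the PTIR1 library (1.26, 1.10 to 1.44) and was the member with an interval above 1. Ratios with intervals that hold 1 were found for Cdc20 (96.5 and 105.1 CPM, 1.09), Cenpa (1.01), Bub1b (0.922), Ccna2 (0.919) and Plk1 (0.852). Stmn1 stood at 159 and 119 CPM (0.748, 0.689 to 0.811).

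**Figure D3:**
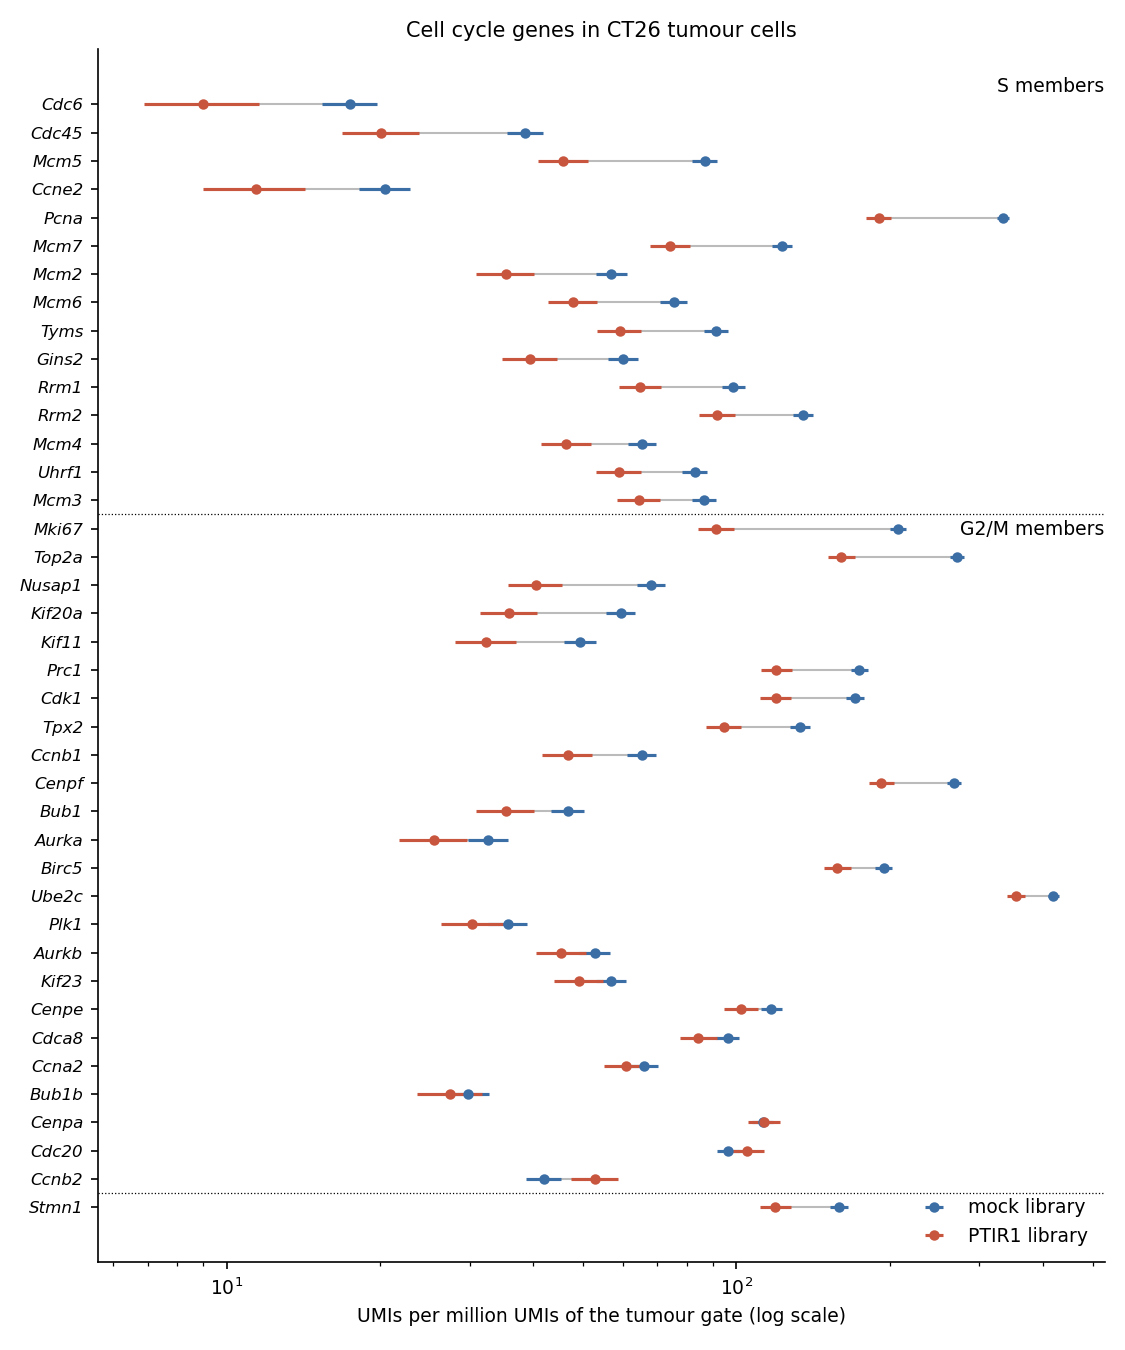
Level of each of the 40 members in tumour-like cells (horizontal axis, CPM of the gate, log scale) in the mock (blue) and PTIR1 (red) libraries with exact 95% Poisson intervals; genes are ordered by phase and then by ratio. All 15 S members lie to the left in the PTIR1 library, Mki67 has the lowest ratio (0.440), and Ccnb2, at 41.9 and 52.7 CPM, lies to the right.

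Part of this difference was present among called cells alone. Called and other cells were set by these same members, so the levels within them are not independent of the call. In called tumour-like cells the S members stood at 1597 CPM in mock and 1170 CPM in PTIR1 tumours (0.733, 0.709 to 0.756), and the G2/M members at 3649 and 3382 CPM (0.927). The median depth of these called cells was close, at 80652 and 78262.5 UMIs. Here 25 members had an interval below 1 (background 20.9%) and 4 an interval above 1 (background 8.73%). Apart from the phase members, the background genes took no part in the call. All 15 S members were among the 25. Mki67 stood at 265 and 142 CPM (0.535, 0.489 to 0.585), and Ccnb2 at 50.8 and 72.5 CPM (1.43, 1.24 to 1.64). The other 3 above were Cdc20 (1.32), Cenpa (1.20) and Ccna2 (1.13). In tumour-like cells that were not called, the S members stood at 609 and 369 CPM (0.606), while the G2/M members stood at 216 and 287 CPM (1.33). Those cells were less alike in depth, with medians of 65496 and 46819 UMIs.

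Among called cells the balance of phases moved the same way. In called tumour-like cells S members gave 30.4% of the phase UMIs in the mock library (30.1 to 30.8%) and 25.7% in the PTIR1 library (25.1 to 26.3%). Cells in which S members gave more than 2/3 of the phase UMIs numbered 29 of 109 in mock tumours (26.6%, 18.6 to 35.9%). In PTIR1 tumours such cells numbered 5 of 36 (13.9%, 4.67 to 29.5%), and these intervals overlap. Cells in which S members gave less than 1/3 numbered 55 and 21, and 25 and 10 lay between. With each called cell weighing the same the S share was 43.3% in mock and 33.0% in the PTIR1 library. Over all tumour-like cells of at least 2000 UMIs, weighed in the same way, it was nearly alike, at 53.4% and 52.2%. Of these cells 66 of 159 in mock (41.5%) and 33 of 84 in PTIR1 tumours (39.3%) lay above 2/3.

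Most other S, G2/M and regulator genes, from lists beside the members, were also lower in tumour-like cells of the PTIR1 library. Of 14 other S genes 13 had an interval below 1, of 20 other G2/M genes 16, and of 17 regulators 12, where the background is 24.6%. Of 9 inhibitors and genes of quiescence measured, 4 had an interval below 1 and 1 above, where the background is 10.8%. Lig1, the ligase of lagging-strand DNA, stood at 124 CPM in mock and 59.3 CPM in the PTIR1 library (0.480), and the polymerase gene Pola1 at 51.7 and 26.9 CPM (0.520). The next lowest by interval were Slbp (0.634), the activator E2f2 (0.460), Smc2 (0.659) and Anln (0.655). At the high end Btg2, a gene of growth arrest, stood at 27.9 and 86.1 CPM (3.08, 2.71 to 3.51) and Myc at 38.3 and 48.1 CPM (1.26). Cdk4, the kinase of G1, stood at 355 and 354 CPM, H2afz at a ratio of 1.01, Ccnd2 at 0.989 and Cdc25c at 1.16.

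Some genes outside the cell cycle differed between called and other tumour-like cells of the same library. Bnip3, a gene known for its induction by hypoxia, was lower in called cells, with ratios of 0.593 in mock and 0.444 in the PTIR1 library, and Areg, an EGF receptor ligand, had ratios of 0.690 and 0.595. Krt18 had ratios of 0.806 (0.621 to 1.06) and 0.289 (0.221 to 0.376). Tm4sf1 was slightly higher in called cells, with ratios of 1.18 and 1.11. Slurp1 had ratios of 0.846 in mock and 0.927 (0.712 to 1.21) in PTIR1 tumours. Cnfn had a mock ratio of 1.14 (0.897 to 1.47). Car9 had a mock ratio of 0.539, and in PTIR1 tumours 8 UMIs in called and 0 in other cells.

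NK-like cells had nearly the same sum of members in both libraries and, with UMIs pooled, a different balance of phases. All members stood at 2204 CPM in mock and 2318 CPM in PTIR1 tumours (1.05, 1.03 to 1.08). The S members stood at 860 and 786 CPM (0.914), with 14 of 15 ratios under 1. The G2/M members stood at 1212 and 1399 CPM (1.15), with 23 of 24 ratios over 1. The median log2 ratio was -0.18 over the S members, 0.18 over the G2/M members and -0.045 over all genes. Of the 40 members 4 had an interval below 1 (background 13.6%) and 6 an interval above 1 (background 10.4%). Both counts are near the background. Past 1.5-fold were 1 lower (background 2.66%) and 1 higher (background 5.75%).

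The 6 with an interval above 1 were all G2/M members. Ccnb1 stood at 14.1 CPM in mock and 24.9 CPM in the PTIR1 library (1.77, 1.34 to 2.36), Ube2c at 83.8 and 125.5 CPM (1.497), and Cenpa at 94.9 and 121 CPM (1.27). Kif11 (1.41), Birc5 (1.21) and Top2a (1.11) were the others. The 4 below were S members, namely Ccne2 (0.568), Rrm1 (0.823), Mcm5 (0.856) and Uhrf1 (0.804). Mki67 stood at 178.6 and 181.2 CPM and Pcna at 207 and 202 CPM, each pair within counting error. In called NK-like cells S members gave 35.6% of phase UMIs in mock and 28.4% in the PTIR1 library. With each cell weighing the same these shares were 55.2% and 53.4%. Over all NK-like cells of at least 2000 UMIs, weighed in the same way, they were 64.1% and 64.4%.

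Most of the NK-like member UMIs came from 1 cluster. Clustering without the members and the related cell cycle genes gave a cluster led by the granzyme genes Gzmf, Gzmg, Gzmd, Gzmc and Gzme. Mki67, Top2a and Pclaf were also among its leading genes, and whether it formed apart from cycling was not tested. This cluster held 49 deep NK-like mock cells and 72 PTIR1 cells. Called cells were 71.4% and 65.3% of them, and they gave 69.9% and 69.8% of the class's member UMIs. In the remaining NK-like cells called cells were 17.0% and 16.3%. Between called and other NK-like cells, Gzma had ratios of 0.785 in mock and 0.794 in the PTIR1 library, Gzmb 0.832 and 0.836, Prf1 0.767 and 0.772, and Il7r, a receptor of resting lymphocytes, 0.471 and 0.246.

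Of the other cell cycle genes in NK-like cells, the inhibitor Cdkn1a (p21) stood at 70.5 CPM in mock and 152 CPM in PTIR1 tumours (2.16, 1.91 to 2.44). The inhibitor Cdkn1b (p27) stood at 69.3 and 49.5 CPM (0.715). Among 16 regulators measured 3 had an interval below 1 (background 13.6%) and 2 above (background 10.4%), shares near those of all genes. Foxm1, the activator of G2/M genes, had a ratio of 1.53, and Ccnd2 and Ccnd3, D-type cyclins, had ratios of 0.797 and 0.794. Hells (0.699), Rpa2 (0.747) and Lig1 (0.820) were the other low ones, and Tuba1b (1.15), Cdk4 (1.14), H2afz (1.07) and Btg1 (1.06) the other high ones.

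T-like cells had lower G2/M members and slightly higher S members in the PTIR1 library. All members stood at 2429 CPM in mock and 1991 CPM in PTIR1 tumours (0.820, 0.787 to 0.853). The G2/M members stood at 1541 and 983 CPM (0.638), and the S members at 763 and 897 CPM (1.18). Over both libraries 36 members had at least 50 UMIs, of which 13 had an interval below 1 (background 10.2%), all of them G2/M members, and 4 an interval above 1 (background 7.68%), all of them S members. At least 1.5-fold lower were 9 (background 7.04%), and 2 were 1.5-fold higher (background 3.78%).

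Cenpf had the lowest ratio in T-like cells, at 80.9 CPM in mock and 27.3 CPM in the PTIR1 library (0.338, 0.241 to 0.463). Ube2c stood at 105.6 and 37.0 CPM (0.351), Nusap1 at 63.1 and 27.3 CPM (0.433), and Mki67 at 262.9 and 141.5 CPM (0.538, 0.465 to 0.621). Ccnb2 was the G2/M member with a ratio over 1, at 38.1 and 47.4 CPM (1.24, 0.932 to 1.65). The S members with an interval above 1 were Rrm2, at 45.8 and 72.3 CPM (1.58, 1.24 to 2.01), Mcm6 at 58.0 and 80.8 CPM (1.39), Mcm7 (1.39) and Mcm5 (1.36). Pcna stood at 193 and 195.5 CPM.

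These T-like values rest on few cells. In the PTIR1 library 9 of 127 cells gave 50% of the member UMIs, and 10 T-like cells in the cluster led by Gzmf gave 54.1% of them, against 11 cells and 33.8% in the mock library. The S share of called cells was 28.0% in mock and 42.4% in the PTIR1 library when UMIs were pooled, and 44.4% and 43.5% when each cell weighed the same. With classes taken from clusters, where most cycling T-like cells fall outside the T-named cluster, the summed ratio turned to 0.32 on the log2 scale. In called against other T-like cells Il7r had ratios of 0.665 in mock and 0.362 in the PTIR1 library. Of the other cell cycle genes Cdkn1a stood at 160 and 225 CPM (1.41), Pola1 had a ratio of 0.309, Tacc3 of 0.393 and Cdk6 of 0.685.

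**Figure D4:**
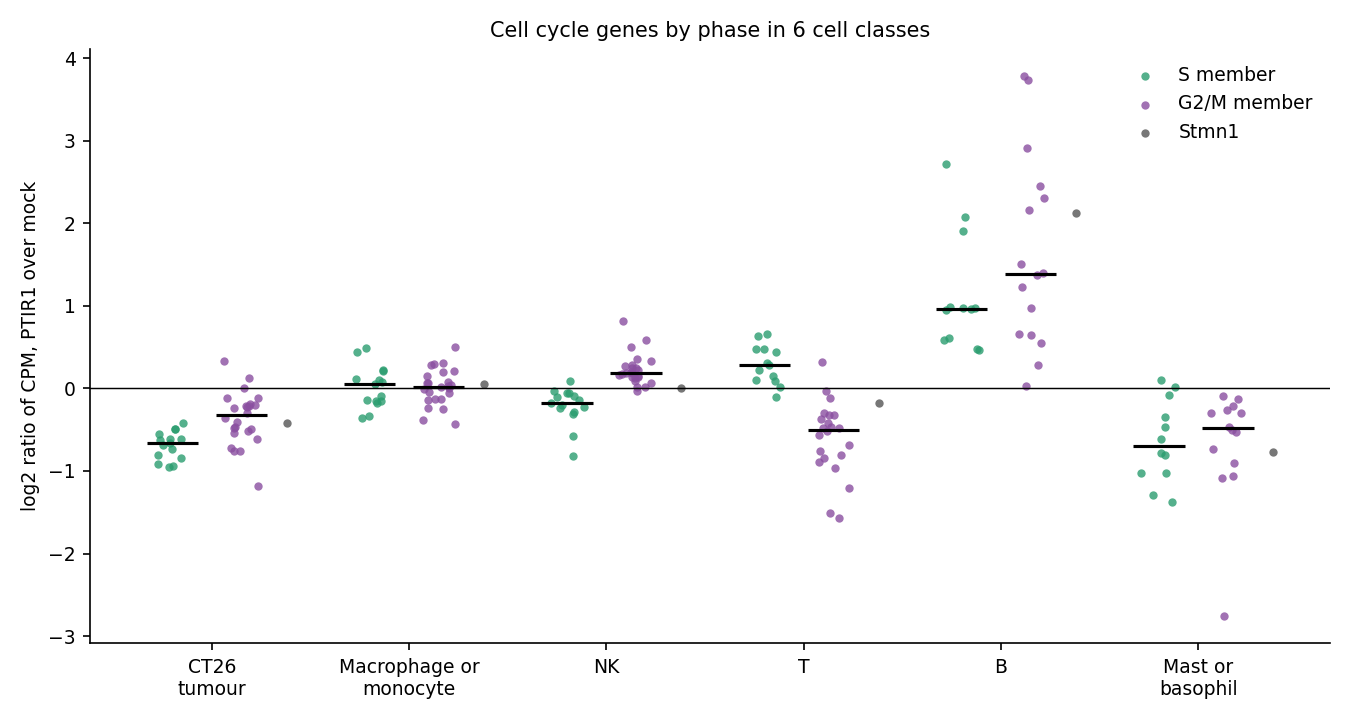
Log2 ratio of the class level (vertical axis, PTIR1 over mock, CPM) of each member with at least 50 UMIs in 6 classes; green points are S members, purple points G2/M members, grey points Stmn1, and black lines medians. Tumour-like S members lie lowest of that class (median -0.66), 12 of 13 T-like S members lie above 0 and 21 of 22 T-like G2/M members below (medians 0.28 and -0.50), and B-like members lie above 0.

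B-like cells had the highest ratios of the members, and they came from a small group of cells. All members stood at 530 CPM in mock and 1132 CPM in PTIR1 tumours (2.14, 1.99 to 2.30). Of 29 members measured 21 had an interval above 1 (background 8.55%) and 0 below (background 13.3%). At least 1.5-fold higher were 23 (background 5.36%) and 0 were as much lower (background 5.96%), and the median log2 ratio was 0.99. Mki67 had 11 UMIs in mock and 313 in PTIR1 tumours, or 6.21 and 82.7 CPM (13.3, 7.34 to 27.0). Top2a stood at 23.7 and 62.6 CPM (2.64), Uhrf1 at 3.95 and 25.9 CPM (6.55), Mcm6 at 10.7 and 45.2 CPM (4.21), and Pcna at 111 and 153 CPM (1.39). Cenpa differed least, at 93.7 and 95.9 CPM (1.02).

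The share of B-like cells with at least 6 members was 1 of 359 in the mock library (0.279%) and 15 of 667 in the PTIR1 library (2.25%), while the share with at least 3 was alike. A cluster led by Ighg1, Jchain, Ms4a1, Rgs13 and Mzb1 held 35 of the PTIR1 B-like cells, of which 14 (40%) were called, and 3 mock cells, of which 0 were called. Those 35 cells gave 57.5% of the class's member UMIs in the PTIR1 library. Of the 48 cells in this cluster 45 came from the PTIR1 library, so a state of B cells and a feature of that library cannot be told apart. In the remaining B-like cells outside shallow clusters the members stood at 528 CPM in mock and 552 CPM in PTIR1 tumours. Called B-like cells of the PTIR1 library carried more Jchain, the chain that joins secreted antibodies (459 against 60.4 CPM in other B-like cells, 7.59-fold), and more of the germinal centre gene Mef2b (6.70-fold), and less Ighd (0.324). In the mock library Ighd had a ratio of 0.860 (0.705 to 1.04). Of the other cell cycle genes Pclaf, a partner of Pcna, stood at 10.7 and 125 CPM (11.7, 7.38 to 19.5) and Hmgb2 at 362 and 786 CPM (2.17).

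In macrophage-like cells the members did not differ as a group. All members stood at 479 CPM in both libraries (1.001, 0.977 to 1.02). Of the 40 members 2 had an interval below 1 (background 20.5%), namely Uhrf1 (0.779) and Pcna (0.941), and 4 an interval above 1 (background 17%), namely Bub1b (1.42), Rrm2 (1.41), Kif23 (1.23) and Mki67 (24.2 and 29.6 CPM, 1.22). Past 1.5-fold were 0 lower (background 2.81%) and 0 higher (background 6.26%). With each cell weighing the same the summed ratio was -0.59 on the log2 scale, a setting in which shallow cells count as much as deep ones.

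A cluster led by C1qa, C1qb, C1qc, Ctsk, Acp5 and Ccl8 held 34 of the 93 called macrophage-like cells of mock tumours and 19 of the 101 of PTIR1 tumours. They were 27.4% of its 124 mock and 27.1% of its 70 PTIR1 cells of this class, and the cluster gave 29.6% and 28.3% of the class's member UMIs. Shallow clusters of no class held 6 of 27 (22.2%) called cells in mock and 42 of 122 (34.4%) in PTIR1 tumours, at median depths of 2297 and 2547.5 UMIs. In the remaining macrophage-like cells 53 of 2117 (2.50%) and 36 of 1433 (2.51%) were called, within the neutrophil-like intervals. Called macrophage-like cells had more C1qa, a complement gene of tissue macrophages, at 3549 against 430 CPM in the mock (8.26-fold) and 1518 against 226 CPM in the PTIR1 library (6.73-fold). They had less Ly6c2, a monocyte gene, with ratios of 0.360 and 0.783, and less Arg1, with ratios of 0.429 and 0.477. Of the other cell cycle genes, Ccnd1 stood at 161 and 99.9 CPM (0.620), Btg2 at 368 and 560 CPM (1.52) and Cdkn1a at 431 and 639 CPM (1.48).

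Mast-like cells had lower members in the PTIR1 library, measured in few cells. All members stood at 1936 CPM in mock and 1272 CPM in PTIR1 tumours (0.657, 0.602 to 0.717). Of 27 members measured 9 had an interval below 1 (background 12.8%) and 0 above (background 6.14%), and 13 were at least 1.5-fold lower (background 16.7%) and 0 as much higher (background 4.14%). Mki67 stood at 152 and 71.7 CPM (0.473), Top2a at 164 and 88.1 CPM (0.536), Tyms at 69.1 and 26.6 CPM (0.385), and Pcna at 168 and 170 CPM (1.01). In the PTIR1 library 3 of 92 cells gave 50% of the member UMIs. Called mast-like cells had a median of 5487 UMIs in mock and 2264 in PTIR1 tumours, against 4616 and 8090.5 in other mast-like cells. Their median mitochondrial shares were 2.77% and 0.795%, against 4.73% and 4.19% in the others. The part of depth and barcode quality in this result and in the called shares was not tested.

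Set against called NK-like cells, called tumour-like cells had some members higher and some lower. In both libraries 12 of the 40 members had an interval of the ratio above 1 (background 27%) and 13 an interval below 1 (background 30.3%). These shares are close to those of all genes, so nothing here is particular to the members. Kif20a was 2.63-fold higher in tumour-like cells of the mock and 1.86-fold in the PTIR1 library, Ube2c 2.14-fold and 1.56-fold, Prc1 1.79-fold and 1.35-fold, and Cdk1 1.79-fold and 1.38-fold. Mki67 was lower in tumour-like cells, with ratios of 0.504 and 0.275, as were Ccnb2 (0.437 and 0.609), Mcm6 (0.502 and 0.476), Stmn1 (0.544 and 0.507) and Nusap1 (0.562 and 0.387). Mki67 in called NK-like cells stood within counting error between the libraries (0.980, 0.898 to 1.07), whereas in called tumour-like cells its ratio was 0.535.

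**Figure D5:**
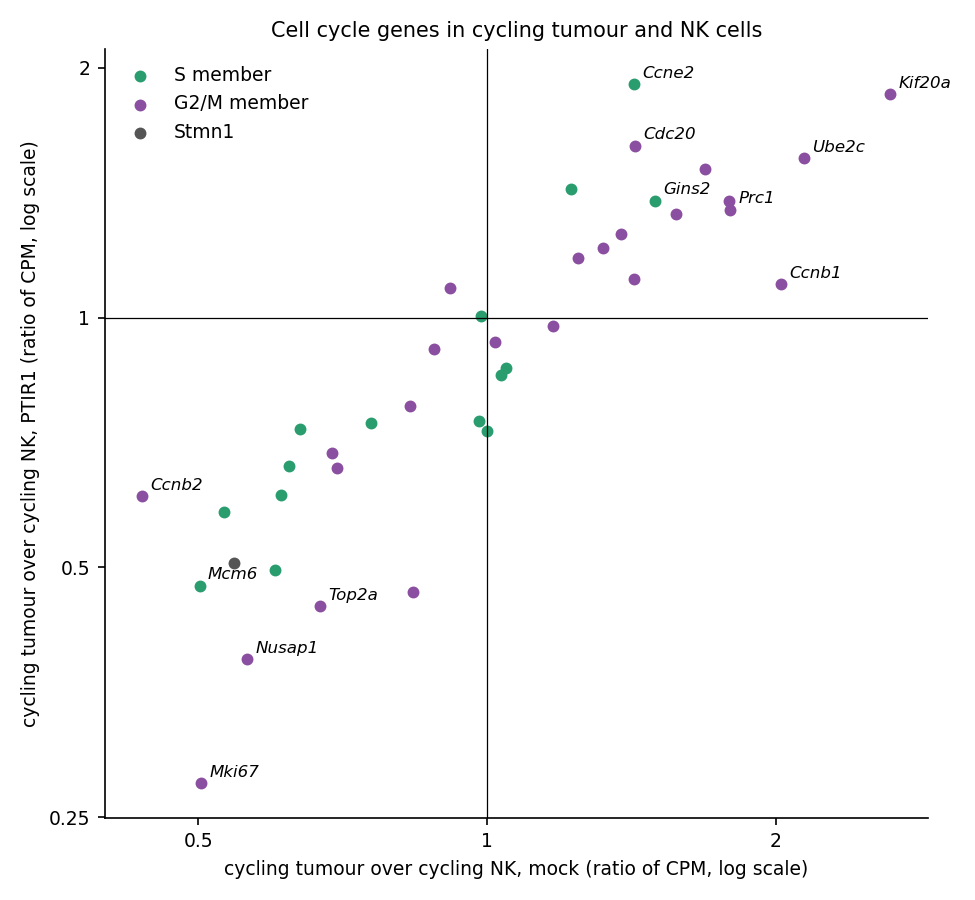
Ratio of the level in called tumour-like cells to that in called NK-like cells for each of the 40 members, in the mock (horizontal axis) and PTIR1 (vertical axis) libraries, both as ratios of CPM on log scales; green points are S members, purple points G2/M members and the grey point Stmn1. Kif20a lies at the upper right (2.63 and 1.86) and Mki67 at the bottom (0.504 and 0.275).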

How the data were processed

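The deposited matrices held UMI counts per gene and barcode, 1 matrix for the mock and 1 for the PTIR1 library, and the file headers name Cell Ranger. In the submitters' processing notes stand Cell Ranger 5.0.0, Seurat 3.2.3 and the genome mm10, with no annotation version. GENCODE vM21, where all 40 members carry the same symbols, gave their chromosomes. No deposited barcode held under 500 UMIs. The 40 members and the other lists were chosen with earlier results of these data known.

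Cells with under 200 genes or over 10% mitochondrial UMIs were left out. Classes were gated on summed marker UMIs per 10000, with at least 3 different markers detected and low markers of other classes. The gate limits were set after marker levels were seen, at 4 for tumour, 40 for macrophage, 30 for NK, 8 for T, 20 for B, 60 for mast, 15 for fibroblast and 100 for neutrophil. A tumour-like cell also needed at least 2 UMIs of a marker other than Tm4sf1. Members with under 50 UMIs in a class over both libraries had no ratio, which left 40 in tumour-like, macrophage-like and NK-like, 36 in T-like, 29 in B-like and 27 in mast-like cells. Levels have exact Poisson, ratios of CPM exact conditional binomial and shares of cells exact Clopper-Pearson intervals. For ratios of shares they are normal on the log scale and for differences of shares Newcombe's. Phase was read as the S members' share of phase UMIs. Background percentages are over all genes with at least 50 UMIs in the same comparison. All members were reported, and of the related list the 6 largest and 6 smallest ratios by the interval end nearest to 1 were eligible, with the genes named outside the cell cycle listed beforehand. 1 gene of those lists is not reported here.

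Doublets stayed in the counts. As an alternative the 8% of cells with the highest Scrublet scores were removed (746 mock, 605 PTIR1), 48 of 714 and 85 of 612 called cells among them. For the alternative classes, 2115 variable genes were clustered (Leiden, 30 components, 15 neighbours, resolution 1) into 26 clusters. The members, the related list and histone genes were among those left out, and other cell cycle genes were not removed. Of the clusters 17 took the name of a gate that held at least 45% of their deep cells. That limit, the clusters described by leading genes and the choice of the 7 shallow clusters came after the data had been seen. The shallow clusters held 5623 cells, and 1 of them held 3181 mock and 176 PTIR1 cells. The interval code was tested on simulated data. The scripts ran on matplotlib 3.10.9, scikit-learn 1.9.0, scanpy 1.11.5, pandas 2.3.3, scipy 1.17.1, numpy 2.4.6 and Python 3.11.15.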

Additional observations from a re-analysis of the deposited data

Results flagged for a closer look

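The summed level of the members went in opposite directions in different cell classes, with counting intervals that did not hold 1. The ratio of the PTIR1 over the mock library was 0.718 in tumour-like, 0.820 in T-like and 0.657 in mast-like cells. In NK-like cells it was 1.05 and in B-like cells 2.14. Fibroblast-like cells had a ratio of 0.633 (0.592 to 0.678) and plasmacytoid dendritic-like cells of 0.538 (0.468 to 0.618). The fibroblast-like mock cells numbered 35, and 5 of them gave 75.7% of their member UMIs. Among plasmacytoid dendritic-like mock cells of at least 2000 UMIs, the 5 called cells gave 168 of 272 G2/M UMIs. The S members of that class had a ratio of 0.844 (0.705 to 1.01). In conventional dendritic-like (0.945) and neutrophil-like cells (1.02) the interval holds 1. The difference between classes was not tested, because each library is a single sample. For tumour-like, T-like, mast-like, NK-like and B-like cells the values on which single clusters or few cells bear are given above.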

How the results depend on the processing

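No paired analysis was possible because each group had 1 library, and for the same reason no library could be left out. The lower cycling share of tumour-like cells kept its direction under all 14 alternatives, from -0.74 to -0.35 on the log2 scale. With G2/M members only its ratio was 0.742, with an interval of 0.529 to 1.04 that holds 1. The NK-like log2 ratio stayed between -0.14 and 0.22. The macrophage-like share (0.60) turned to -0.43 when thinned to 1000 UMIs, -0.061 at 5000 UMIs, -0.077 with cluster classes and -0.083 in cells of at least 20000 UMIs, and was 0.18 with at least 2 members and 0.012 without shallow clusters. The T-like share in cells of at least 20000 UMIs was 0.49. The B-like share (0.01) was 2.55 thinned to 1000 UMIs, 1.35 with at least 4 members, 3.01 with at least 6 and 2.28 with G2/M members only. The mast-like share (-0.28) was -1.22 at 5000 UMIs.

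Summed levels, as log2 ratios, moved with the weight of cells. In tumour-like cells (-0.48) they were -0.59 with equal cells, -0.52 with cluster classes, -0.59 without the top 5 cells and -0.36 with a stricter fibroblast limit. In macrophage-like cells (0.00) the same 3 settings gave -0.59, -0.18 and -0.058, and 0.052 was found without shallow clusters. NK-like cells (0.07) gave 0.12 with equal cells and 0.18 without the top 5. T-like cells (-0.29) turned to 0.32 with cluster classes, with a median over members of 0.31 there, and gave -0.42 without the top 5. B-like cells (1.10) gave 0.20 with equal cells, 0.70 without the top 5 and 0.065 without the cluster led by Ighg1 and Rgs13, and a median of 1.35 with cluster classes. Mast-like cells (-0.61) gave -0.19, -0.42 and -1.05 with equal cells, cluster classes and without the top 5.

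The difference in S share of called cells, in percentage points, was -3.40 without Pcna, -10.3 with equal cells and -9.03 with the stricter fibroblast limit in tumour-like cells (-4.74). In macrophage-like cells (1.44) it was -2.69 with calls at 5000 UMIs, -4.70 with cluster classes and -2.17 with equal cells. NK-like cells (-7.12) gave -1.77 with equal cells, -5.86 without the top 5 and -4.26 under another setting. T-like cells (14.4) turned to -20.0 with cluster classes and -0.85 with equal cells, and gave 7.95 without the top 5. B-like cells (-6.92) gave 31.0 with at least 6 members and 1.64 without the cluster led by Ighg1 and Rgs13. Mast-like cells (-5.97) turned to 10.3 with equal cells and 18.5 without the top 5. The cause was not tested for any of these. The cluster classes put most cycling T-like cells in a cluster named NK or in one of no class.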
